A study of Mus musculus with 12 samples.

Results

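A set of 10 genes that mark lipid-associated macrophages was followed in mouse liver: Gpnmb, Trem2, Cd9, Spp1, Lgals3, Cd63, Capg, Anxa5, Mmp12 and Itgax. They were taken by symbol from the deposited expression table, and all 10 had a row among its 12284 named genes. Livers came from Acly f/f; Acss2 f/f mice injected at 6 to 8 weeks of age with AAV8-TBG-Cre, which gave the double knockout group (DKO, 6 libraries), or with AAV8-TBG-GFP, which gave the control group (WT, 6 libraries). All mice in both groups were placed on a Western diet 1 week after injection and kept on it for 6 weeks. The TBG promoter directs Cre to hepatocytes, so the alleles of macrophages were not its target, and the WT group carried the floxed alleles and a virus as well. Neither strain nor sex is given in the sources used here. The labels do not tie each library to its own animal, so the p-values measure how libraries spread, which may be technical. An effect of Cre itself cannot be told apart from loss of the genes.

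Lipid-associated macrophages are macrophages that gather where lipid accumulates or cells die, in obese adipose tissue, atherosclerotic plaque and fatty liver. They take up lipid and debris through receptors such as TREM2, degrade it in lysosomes, and release osteopontin, galectin-3 and proteases that act on the surrounding matrix. In the liver they are thought to arise largely from recruited monocytes, beside the resident Kupffer cells. Several of the 10 genes are also used by other cells: osteopontin and CD9 by bile duct cells, and annexin A5, CD63 and galectin-3 by many cell types. In whole liver, a change in the number of cells of a type cannot be told apart from a change in RNA per cell.

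Values were log2 CPM (CPM, counts scaled to a common library total), in which a difference of 1 is a 2-fold change. Back-transformed libraries summed to 905964 to 1087992 CPM, and since read depth is unknown, counting error could not be attached to any level. The targeted genes were lower in the DKO livers: Acly fell to 17.6% of WT (limma adjusted p = 0.0165) and Acss2 to 22% (adjusted p = 0.00571), though the lowest WT and highest DKO values of Acly overlapped. The hepatocyte marker Alb was abundant in both groups, with a mean ± SD over 6 libraries of 15.67 ± 0.13 (WT) and 15.44 ± 0.33 (DKO) log2 CPM.

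The sequences just before the start sites of 4 of the genes are shown, since these genes turn up below either as the one of the 10 with the largest change (Gpnmb) or as those that share a motif. They are the 250 bases before a RefSeq start (build GRCm38.p6, plus strand, 5′ to 3′), and capitals mark every match to the 4 motifs searched. The windows are chr6:49036268-49036517 for Gpnmb, chr17:48346151-48346400 for Trem2, chr7:128129300-128129549 for Itgax and chr9:7347124-7347373 for the downstream of 2 listed Mmp12 starts. In the GENCODE M21 annotation the Gpnmb and Trem2 windows held no gene, the Itgax window had 3 bases in an Itgax exon, and the Mmp12 window lay within the gene with 0 of its bases in an exon.
Gpnmb: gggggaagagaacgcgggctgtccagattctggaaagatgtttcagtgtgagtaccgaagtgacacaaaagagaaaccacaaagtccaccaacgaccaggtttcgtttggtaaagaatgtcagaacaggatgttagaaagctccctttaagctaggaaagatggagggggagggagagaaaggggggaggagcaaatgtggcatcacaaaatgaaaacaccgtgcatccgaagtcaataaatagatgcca
Trem2: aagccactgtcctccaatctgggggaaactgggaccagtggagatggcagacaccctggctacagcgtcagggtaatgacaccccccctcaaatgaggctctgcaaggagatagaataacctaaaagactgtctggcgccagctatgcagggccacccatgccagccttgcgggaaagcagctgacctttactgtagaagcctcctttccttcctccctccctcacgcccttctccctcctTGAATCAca
Itgax: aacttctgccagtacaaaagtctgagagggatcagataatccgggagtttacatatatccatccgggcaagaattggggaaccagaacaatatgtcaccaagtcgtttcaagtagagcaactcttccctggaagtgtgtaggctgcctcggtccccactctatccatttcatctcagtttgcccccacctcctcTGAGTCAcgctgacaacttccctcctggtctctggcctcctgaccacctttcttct
Mmp12: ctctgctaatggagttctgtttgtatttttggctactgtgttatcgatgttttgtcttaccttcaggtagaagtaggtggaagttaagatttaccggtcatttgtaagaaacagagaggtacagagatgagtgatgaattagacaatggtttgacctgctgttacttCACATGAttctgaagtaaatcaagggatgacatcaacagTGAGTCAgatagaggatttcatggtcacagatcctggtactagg
Motifs were searched on both strands in all 32851 such windows of the RefSeq table, 12 of which belonged to the 10 genes. TGANTCA, the core recognized by AP-1 factors, was found in 6.75% of all windows and in those of Trem2, Itgax and Mmp12, where its first base lay 9, 56 and 44 bases before the start. TCATGTG, an M-box form bound by MITF-type factors, was found in 3.25% of all windows and in the Mmp12 window shown, 83 bases before the start, where it reads CACATGA because it lies on the other strand. GAGGAAGT, an ETS core of the kind PU.1 binds, was found in 2.44% of all windows and in 1 window each of Spp1 and Mmp12 that are not shown. CACGTG, the E-box core, was found in 6.02% of all windows and in 0 of the 12. These matches describe the letters in these windows and say nothing of binding.

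The study compared DKO with WT to ask what ACLY and ACSS2, the enzymes that make acetyl-CoA from citrate and acetate, do in the fat build-up of livers on this diet. All 10 genes had a higher mean in DKO, as did 50.8% of all genes. Of the 10, 7 rose and 0 fell (limma, adjusted p below 0.05 over 12284 genes), against 0.619% of all genes that rose and 1.12% that fell (1.74% in either direction). The 7 were Gpnmb, Mmp12, Capg, Cd63, Lgals3, Anxa5 and Spp1, and these are also the 7 whose WT and DKO libraries did not overlap, a pattern that 0.79% of all genes showed in this direction and 2.17% in either. Itgax, Trem2 and Cd9 did not pass. The median log2 fold change of the 10 was 1.19, against 0.00414 over all genes. The 10 genes were chosen with earlier results of these data known, so these comparisons with all genes are descriptions and not a test.

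**Figure D1:**
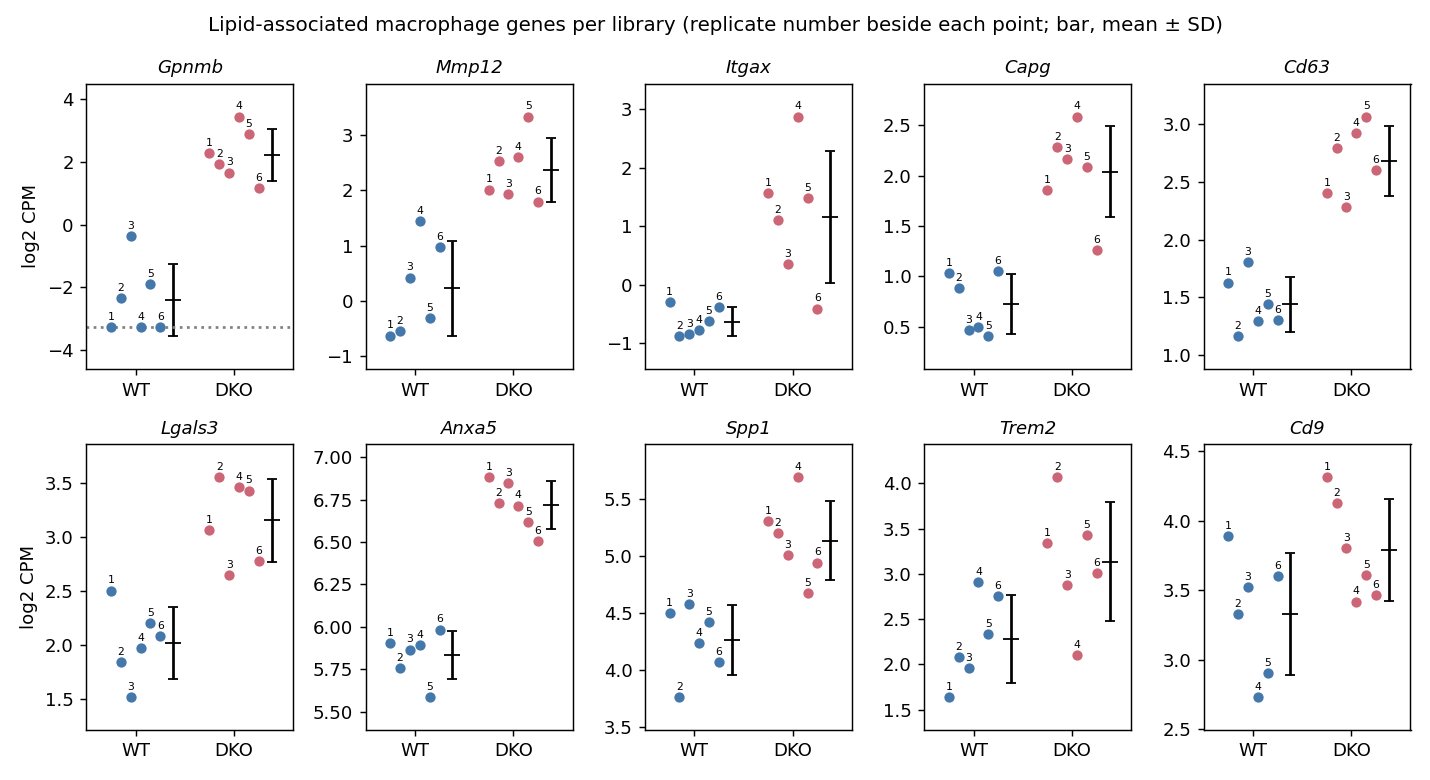
Log2 CPM of each gene (vertical axis, own scale per panel) in the 6 WT (blue) and 6 DKO (red) libraries, with the replicate number beside each point and the mean ± SD as a bar; the dotted line in the Gpnmb panel is the lowest value of the table, -3.26. The groups are apart for 7 genes and overlap for Itgax, Trem2 and Cd9.

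Gpnmb encodes a transmembrane glycoprotein of phagocytes that load their lysosomes with lipid. Its level was -3.26, -2.80 and -0.37 log2 CPM (lowest, median and highest) in WT and 1.17, 2.11 and 3.45 in DKO. Every DKO library lay above every WT library, and the gap between the highest WT library, WT 3, and the lowest DKO library, DKO 6, was 1.55 on the log2 scale. The log2 fold change was 4.63 (SE 0.54, 95% interval 3.48 to 5.79), the second largest rise among all genes, with a limma adjusted p of 0.000851 and an exact permutation p of 0.00216. That exact p is the smallest that dividing 12 libraries into 6 and 6 allows, and it was also reached by the other 6 genes that rose.

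The size of the Gpnmb change rests on how values near the bottom of the table were set. WT 1, WT 4 and WT 6 stood at the lowest value of the table, 0.104 CPM, a level shared by 27 to 67 genes in each library. These 3 were the only values of the 120 of the 10 genes that stood there. Against the mean of the other 3 WT libraries, -1.53 log2 CPM, the DKO mean was higher by 3.77. On the log2(CPM + 1) scale the difference was 2.23 (adjusted p = 0.00120), and with all values below 0 log2 CPM raised to 0 it was also 2.23 (adjusted p = 0.00377). In plain CPM, WT libraries spanned 0.104 to 0.773 and DKO libraries 2.26 to 10.9.

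Trem2 encodes the lipid-sensing receptor that gives these cells one of their names. Its level was 1.64, 2.21 and 2.90 log2 CPM (lowest, median and highest) in WT and 2.10, 3.17 and 4.07 in DKO. Of the DKO libraries, 4 lay above the highest WT library, WT 4, while DKO 4 lay below the WT mean of 2.28. The log2 fold change was 0.86 (SE 0.30, 95% interval 0.22 to 1.5), with a limma adjusted p of 0.158 and an unadjusted exact permutation p of 0.0303. A rise of the size seen for Lgals3 (1.13) lies inside this interval, so the missed threshold does not show that Trem2 was unaltered. Without DKO 4 the log2 fold change was 1.06, and its adjusted p over the 12 fits that left out 1 library ranged from 0.0858 to 0.263.

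Itgax encodes CD11c, an integrin chain of macrophages and dendritic cells. Its level was -0.87, -0.70 and -0.29 log2 CPM (lowest, median and highest) in WT and -0.41, 1.30 and 2.88 in DKO. The 6 WT libraries lay close together, and 5 of the 6 DKO libraries were above all of them, while DKO 6 lay among them. The DKO SD was 1.13 and the WT SD 0.25. The log2 fold change was 1.80 (SE 0.45, 95% interval 0.84 to 2.75), with a limma adjusted p of 0.0595 and an exact permutation p of 0.00649. Without DKO 6 it was 2.11 and passed (adjusted p = 0.0158), and on the log2(CPM + 1) scale it was 1.05 (adjusted p = 0.0830), since all WT values lay below 0 log2 CPM.

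Cd9 and Cd63 both encode tetraspanins, membrane organizers of the cell surface and of late endosomes respectively. Cd63 was at 1.16, 1.37 and 1.81 log2 CPM (lowest, median and highest) in WT and at 2.28, 2.69 and 3.06 in DKO. All DKO libraries lay above all WT libraries, and Cd63 rose 2.36-fold (log2 fold change 1.24, SE 0.18; adjusted p in limma = 0.00397). The annotation also holds a Cd63 pseudogene, and how reads were shared with it is not stated. Cd9 was at 2.73, 3.42 and 3.89 log2 CPM in WT and at 3.42, 3.71 and 4.31 in DKO. Its groups overlapped widely, with 2 DKO libraries above the highest WT library, WT 1. The Cd9 log2 fold change was 0.46 (SE 0.21, 95% interval 0.00377 to 0.92, limma adjusted p = 0.301, exact permutation p = 0.0801).

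Mmp12, Lgals3 and Spp1 encode secreted proteins. Mmp12, the macrophage elastase, had the widest spread among WT libraries after Gpnmb, at -0.62, 0.06 and 1.45 log2 CPM (lowest, median and highest), and was at 1.79, 2.27 and 3.33 in DKO. The highest WT library, WT 4, was 0.34 below the lowest DKO library, DKO 6. Mmp12 rose by 2.14 on the log2 scale (SE 0.39, 95% interval 1.31 to 2.97, limma adjusted p = 0.0148), and by 1.46 on the log2(CPM + 1) scale (adjusted p = 0.0130).

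Lgals3, galectin-3, a sugar-binding protein of activated macrophages, was at 1.52, 2.03 and 2.50 log2 CPM in WT and 2.65, 3.25 and 3.55 in DKO. The groups were apart by 0.14, between WT 1 and DKO 3. Lgals3 rose 2.19-fold (log2 fold change 1.13, SE 0.20; adjusted p in limma = 0.0144).

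Spp1, osteopontin, a matrix protein that binds integrins and CD44, was at 3.76, 4.33 and 4.57 log2 CPM in WT and 4.67, 5.10 and 5.69 in DKO. WT 3 and DKO 5 came within 0.0964 of each other, the narrowest gap among the 7 genes that rose. Spp1 rose 1.83-fold (log2 fold change 0.88, SE 0.17; adjusted p in limma = 0.0213), and the call was lost without WT 6 or without DKO 1 (adjusted p up to 0.0560). Beside Spp1, 4 of 6 measured bile duct markers had a higher mean in DKO and 1 rose (Cd24a, a surface glycoprotein also found on other cells, 1.93-fold, adjusted p = 0.0357, a call lost without any of 8 libraries, WT 3 to WT 6 and DKO 1 to DKO 4, and with quantile normalization). Their summed level was 25.03 to 34.04 CPM in WT and 22.48 to 34.005 in DKO, none stood at the lowest value of the table, and their log2 fold changes had a median of 0.00684. Their part in the Spp1 result was not tested.

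The remaining genes encode proteins that bind calcium inside the cell. Capg, an actin-capping protein of motile phagocytes, was at 0.41, 0.69 and 1.05 log2 CPM in WT and 1.26, 2.12 and 2.58 in DKO. DKO 6 was the lowest DKO library and lay 0.21 above WT 6. Capg rose 2.48-fold (log2 fold change 1.31, SE 0.23; adjusted p in limma = 0.0144).

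Anxa5, annexin A5, which binds phosphatidylserine on dying cells, was at 5.59, 5.88 and 5.98 log2 CPM in WT and 6.505, 6.72 and 6.88 in DKO. With an SD of 0.14 in each group, it was the least variable of the 10 genes. Anxa5 rose 1.84-fold (log2 fold change 0.88, SE 0.09, 95% interval 0.70 to 1.07, limma adjusted p = 0.000306), and only 2 genes of the whole table had a smaller p. A change of nearly the same size in Trem2 did not pass, where the SD was 0.48 in WT and 0.65 in DKO.

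Markers used for macrophages in general were examined next. Among them, Cd68 is also in the list of lipid handling and lysosomal genes described below. Of 15 measured pan-macrophage markers (Adgre1 was not analysed here), all 15 had a higher mean in DKO, 1 rose and 0 fell, and 12 had an unadjusted p below 0.05, as did 16.4% of all genes (2017 of 12284), the share to set beside each such count that follows. That 1 was Lyz2, the macrophage lysozyme (1.93-fold, adjusted p = 0.0357), and the median log2 fold change was 0.56. Their summed level was 340.8 to 613 CPM in WT and 485 to 767 in DKO, with none at the lowest value of the table. The call of Lyz2 was lost without any of 9 single libraries (all but WT 1, DKO 3 and DKO 6; adjusted p up to 0.0865) and when the mean trend was left out.

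Among 12 resident Kupffer cell markers 8 had a higher mean and 0 passed the test (limma, 7 at an unadjusted p below 0.05). Their median log2 fold change was 0.44. The closest was Timd4, a phosphatidylserine receptor of long-lived Kupffer cells, at 0.78 (SE 0.20, adjusted p = 0.0624), which passed without WT 1 or DKO 6. Of 8 measured monocyte markers all 8 had a higher mean, 1 rose (Ccr2, the receptor for the chemokine that recruits monocytes, 2.65-fold, adjusted p = 0.0244), 5 had an unadjusted p below 0.05, and the median was 1.08. The Kupffer markers summed to 409 to 519 CPM in WT and 473 to 622 in DKO, and the monocyte markers to 11.1 to 16.9 and 14.7 to 28.4. Cx3cr1 was the only monocyte marker with a library at the lowest value of the table. Ccr2 lost its call without WT 2, WT 3, DKO 3 or DKO 4, and with quantile normalization.

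**Figure D2:**
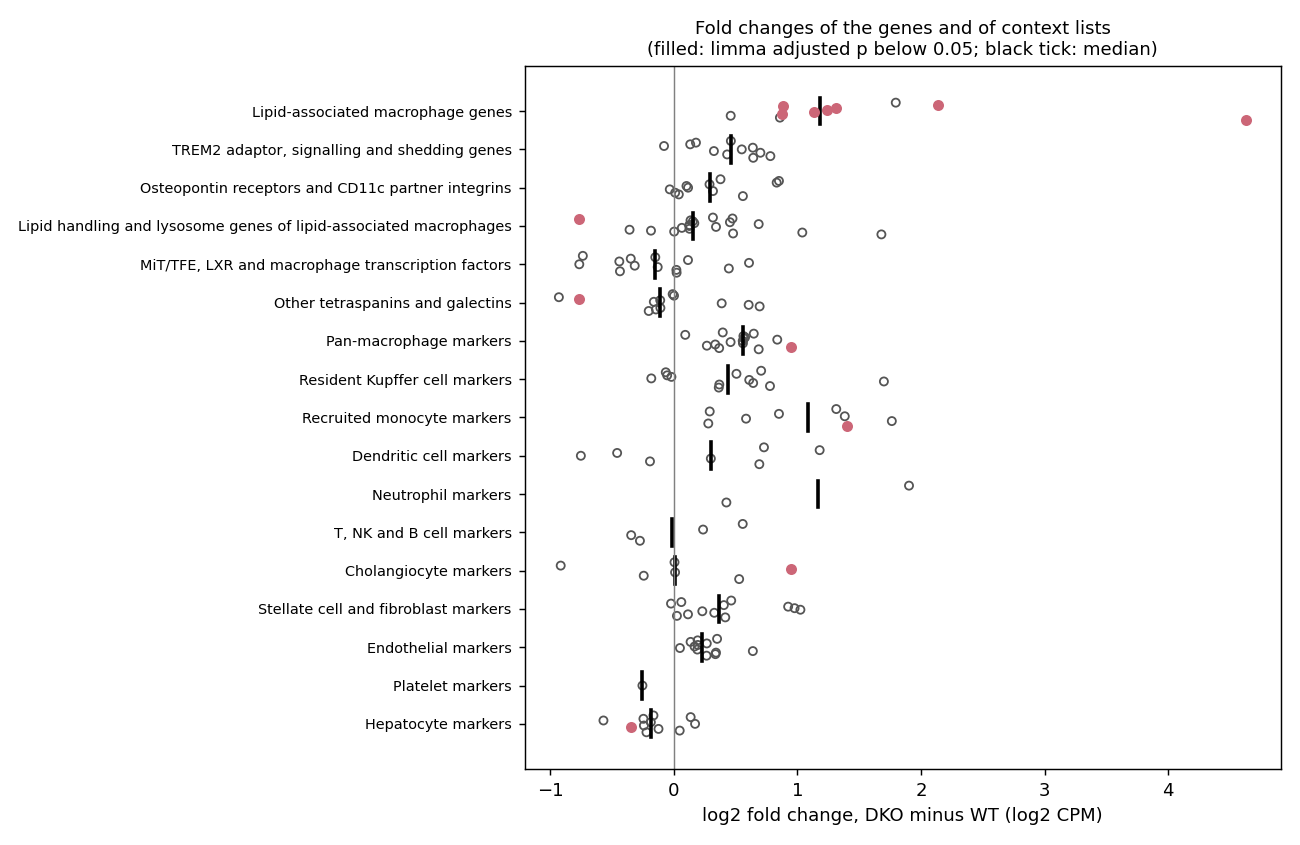
Log2 fold change of DKO against WT (horizontal axis) for each measured gene of the 10 genes and of the context lists; filled points passed the limma test and black ticks are list medians. The 10 genes have 7 filled points and a median of 1.19, the pan-macrophage markers 1 filled point and a median of 0.56.

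To set each gene against the general macrophage signal, the mean log2 CPM of the 15 pan-macrophage markers was subtracted in each library, a measure added after the data were seen and given as a description. Gpnmb remained apart between the groups, at -8.03 to -4.40 in WT and -3.03 to -1.53 in DKO, with a difference of means of 4.11. Capg also remained apart, at -3.73 to -3.16 in WT and -3.04 to -2.19 in DKO, with a difference of 0.79. The other 8 genes overlapped. For these the difference of means was 1.61 for Mmp12, 1.27 for Itgax, 0.71 for Cd63, 0.61 for Lgals3, 0.36 for Anxa5, 0.35 for Spp1, 0.33 for Trem2 and -0.06 for Cd9. Cd9 therefore differed between the groups by about as much as the pan-macrophage markers did.

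**Figure D3:**
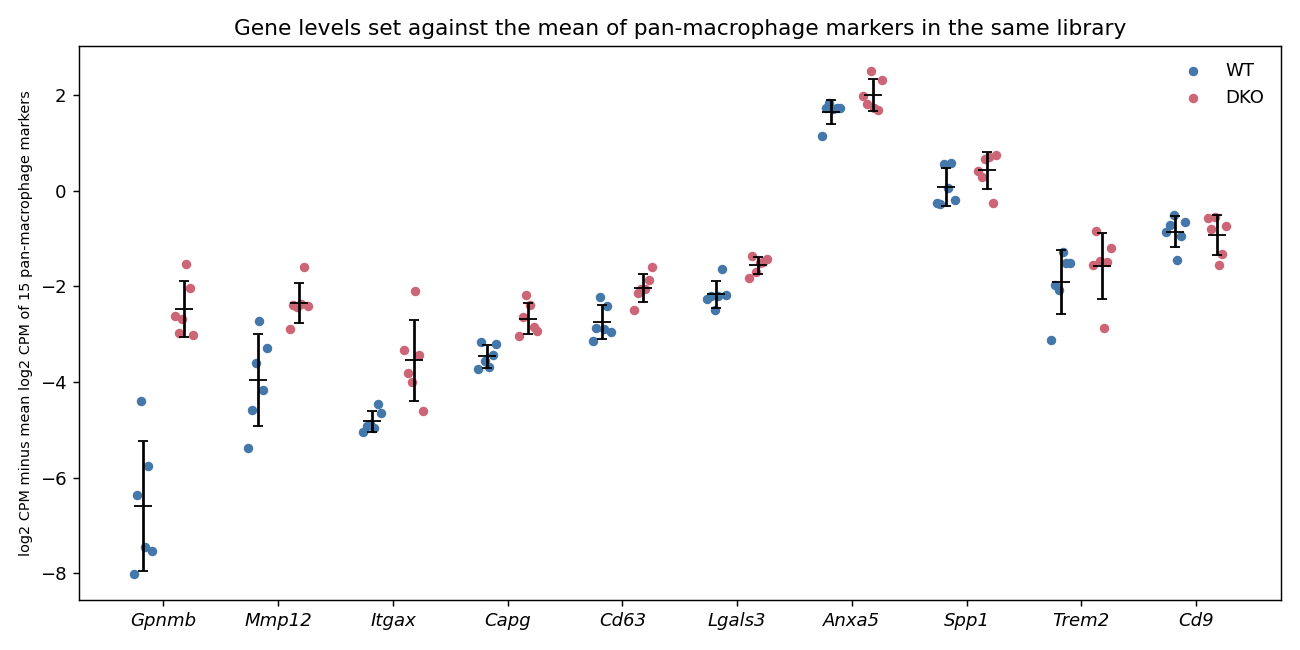
Level of each gene minus the mean of 15 pan-macrophage markers in the same library (log2 CPM, vertical axis), for 6 WT (blue) and 6 DKO (red) libraries with mean ± SD. Gpnmb and Capg have groups that do not overlap, and Cd9 has a difference of -0.06. Gpnmb in WT 1, WT 4 and WT 6 stood at the lowest value of the table before subtraction.

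The partners through which these genes work were examined by list, and in the first 2 lists none passed. Among 11 measured genes of TREM2 signalling and shedding, 10 had a higher mean, 0 passed (limma, 4 at an unadjusted p below 0.05), and the median log2 fold change was 0.46. Syk, the kinase recruited by the TREM2 adaptor, was closest at 0.78 (SE 0.21, adjusted p = 0.0821). Its call was gained without WT 1 or DKO 6, and Tyrobp, the adaptor itself, had a mean ± SD over 6 libraries of 1.82 ± 0.62 (WT) and 2.46 ± 0.36 (DKO) log2 CPM. Among 11 measured osteopontin receptors and integrins of the CD11c family, 0 passed (3 at an unadjusted p below 0.05) and the median was 0.29. Itgb2, the chain that pairs with CD11c, was closest at 0.83 (SE 0.22, adjusted p = 0.0701), and its call too was gained without WT 1 or DKO 6.

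Lipid handling and lysosomal genes known from lipid-associated macrophages had 16 of 19 members with a higher mean, but 0 rose and 1 fell (9 at an unadjusted p below 0.05), and the median was 0.15. The 1 that fell was Lgals1, galectin-1, at 3.21 ± 0.34 (WT) and 2.44 ± 0.24 (DKO) log2 CPM (mean ± SD over 6 libraries). Its DKO level was 58.7% of WT (adjusted p = 0.0389 in limma), while Lgals3 rose. Its groups overlapped, and its call was lost with the replicate block and without any of 9 single libraries (all but WT 2, DKO 4 and DKO 6; adjusted p up to 0.0909). Fabp5, a fatty acid binding protein, had a log2 fold change of 1.68 (SE 0.56) and Lpl, lipoprotein lipase, 1.04 (SE 0.28), and neither passed (adjusted p = 0.142 and 0.0787). Both were named after their values were seen and were the largest rises of the list. Apoe, one of the 9 genes at an unadjusted p below 0.05, was lower in DKO (log2 fold change -0.36, SE 0.15, limma adjusted p = 0.241). Plin2 was also lower (-0.19, SE 0.16, limma adjusted p = 0.617). These too were named after their values were seen. Some of this list, such as Apoe, is also made by hepatocytes.

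Of 13 transcription factors linked to this state (the MiT/TFE family, LXRs and macrophage factors), 5 had a higher mean and 0 passed (limma). Their median log2 fold change was -0.15. The 3 at an unadjusted p below 0.05 were a share near that of all genes. Spi1, the gene of PU.1, was closest at 0.61 (SE 0.21, adjusted p = 0.155). Tfeb and Nr1h2, also at an unadjusted p below 0.05, were lower in DKO (log2 fold change -0.44 and -0.32, limma adjusted p = 0.187 and 0.193). Among 12 other tetraspanins and galectins, 4 had a higher mean, 0 rose and Lgals1 fell (4 at an unadjusted p below 0.05), with a median of -0.11.

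Markers of other cells were examined in the same way. Of 12 stellate cell and fibroblast markers 11 had a higher mean and 0 passed (limma, 7 at an unadjusted p below 0.05), and all 12 endothelial markers were higher with 0 passing (5 at an unadjusted p below 0.05). Their medians were 0.37 and 0.23, and their closest members were Col3a1 (adjusted p = 0.0928) and Cdh5 (0.120, passing without DKO 6). Dendritic cell markers, a list that does not hold Itgax, had 4 of 7 measured members higher and 0 passing, with a median of 0.30. The 5 at an unadjusted p below 0.05 included genes higher and genes lower in DKO. Summed levels were 158 to 190 CPM in WT and 107 to 174 in DKO, with none at the lowest value. These sums mostly follow Bst2, the most abundant of the 7, with a mean of 7.20 (WT) and 6.74 (DKO) log2 CPM. The closest member was also Bst2, an interferon-induced tetherin (log2 fold change -0.46, adjusted p = 0.0902), which passed without DKO 2. Of the neutrophil, lymphocyte and platelet lists only 2 of 10, 4 of 13 and 1 of 7 markers were measured, and 0 passed. Their closest members were Mmp9, Cd79b and Itga2b (adjusted p = 0.103, 0.369 and 0.702), with 1, 0 and 0 genes at an unadjusted p below 0.05. Of 11 measured hepatocyte markers 3 were higher, 1 fell (Asgr1, a lectin that clears glycoproteins, to 78.4% of WT, adjusted p = 0.0452, lost without any of 10 libraries, all but WT 1 and DKO 6, and with quantile normalization or no mean trend) and the median was -0.19. What part any of these cells has in the levels of the 10 genes was not tested.

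Covariation was examined within each group, because the groups differ in level. In DKO, 32 of the 45 gene pairs had a positive Pearson r across the 6 libraries, with a median r of 0.32. In WT, 21 of 45 were positive, with a median of -0.01. Of the 9 pairs that hold Gpnmb, 2 were positive in WT, where 3 Gpnmb values stood at the lowest value of the table, and 7 in DKO. Of the 45 pairs, 16 were positive in both groups and 21 had opposite signs, and whether the groups differ in covariation was not tested. With 6 libraries per group 0 of the 90 correlations passed after Benjamini-Hochberg adjustment, in either measure (Pearson adjusted p of at least 0.62, Spearman of at least 0.75), and 2 in each group had an unadjusted exact permutation p below 0.05. For Pearson r, a single pair at the smallest p that 6 libraries allow, 0.00139, would itself have come to 0.125 after adjustment over 90. For Spearman rho the smallest exact permutation p is larger, 0.00278, since a reversed order is as extreme. The pairs below are therefore descriptions.

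Gpnmb and Itgax formed the tightest pair in DKO, with r = 0.95 (exact permutation p = 0.00694, adjusted p = 0.62) and Spearman rho = 0.94 (exact p = 0.0167, adjusted p = 0.75). Both were highest in DKO 4 and lowest in DKO 6, and without these 2 libraries r was 0.80. The corresponding r in WT was -0.58, where 3 Gpnmb values stood at the lowest value of the table. Cd63 and Mmp12 were next in DKO, with r = 0.88 (exact permutation p = 0.0264, adjusted p = 0.788) and rho = 0.83 (exact p = 0.0583, adjusted p = 0.75), and r was 0.82 without DKO 3 and DKO 5. In WT the leading pair was Spp1 and Cd63, with r = 0.90 (exact permutation p = 0.0167, adjusted p = 0.75) and rho = 0.94 (exact p = 0.0167, adjusted p = 0.75), and r was 0.96 without WT 2 and WT 6. That pair had r = -0.03 in DKO.

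For Trem2 and Gpnmb, r was -0.37 in WT (exact permutation p = 0.475) and -0.38 in DKO (exact permutation p = 0.463), with rho of -0.33 (exact p = 0.533) and -0.09 (exact p = 0.919) and adjusted p of at least 0.926. Without the 2 libraries farthest out in Gpnmb, r was -0.30 in WT and 0.15 in DKO. In WT this left out WT 3 and WT 5, and WT 1, WT 4 and WT 6 shared a Gpnmb value of -3.26 log2 CPM, the table's minimum. The -0.30 therefore contrasts WT 2 alone with tied values and cannot show whether the WT r is stable. The WT r and rho over all 6 libraries include the same ties. DKO 4 held the highest Gpnmb, Itgax, Spp1 and Capg of its group and the lowest Trem2 and Cd9. DKO 6 held the lowest value of 5 of the 10 genes, Gpnmb, Capg, Anxa5, Mmp12 and Itgax. Its mean pan-macrophage level, 4.20 log2 CPM, was also the lowest of the DKO group and below that of WT 1 (4.76) and WT 6 (4.27). The part of macrophage marker levels in the order of the libraries was not tested.

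**Figure D4:**
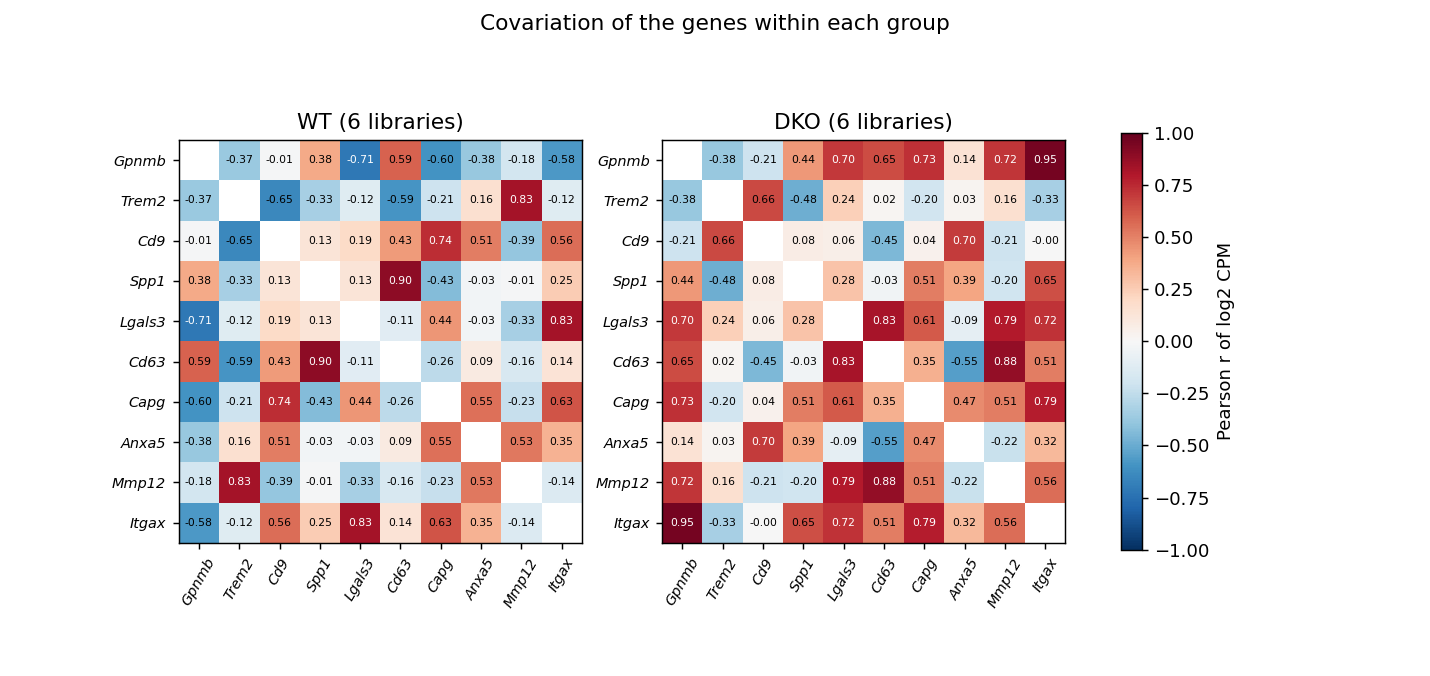
Pearson r between the log2 CPM of each pair of genes across the 6 WT libraries (left) and the 6 DKO libraries (right), on a colour scale from -1 to 1 with each r printed. Of 45 pairs, 21 are positive in WT and 32 in DKO, and the Gpnmb and Itgax pair in DKO reaches 0.95. In WT, 3 of the 6 Gpnmb values stood at the lowest value of the table.

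Raising values below 0 log2 CPM altered 3 of the genes, Gpnmb, Mmp12 and Itgax, which held all 16 such values. The log2(CPM + 1) scale also lowered the log2 fold changes of other genes, to 0.95 for Capg, 0.99 for Cd63 and 0.97 for Lgals3, and left Anxa5, at 0.87, nearly as it was. The same 7 genes were called on that scale and with values below 0 raised to 0. A filter at a mean of 1 log2 CPM removed Gpnmb and Itgax from the test, and the other 6 genes that rose kept their calls.

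**Figure D5:**
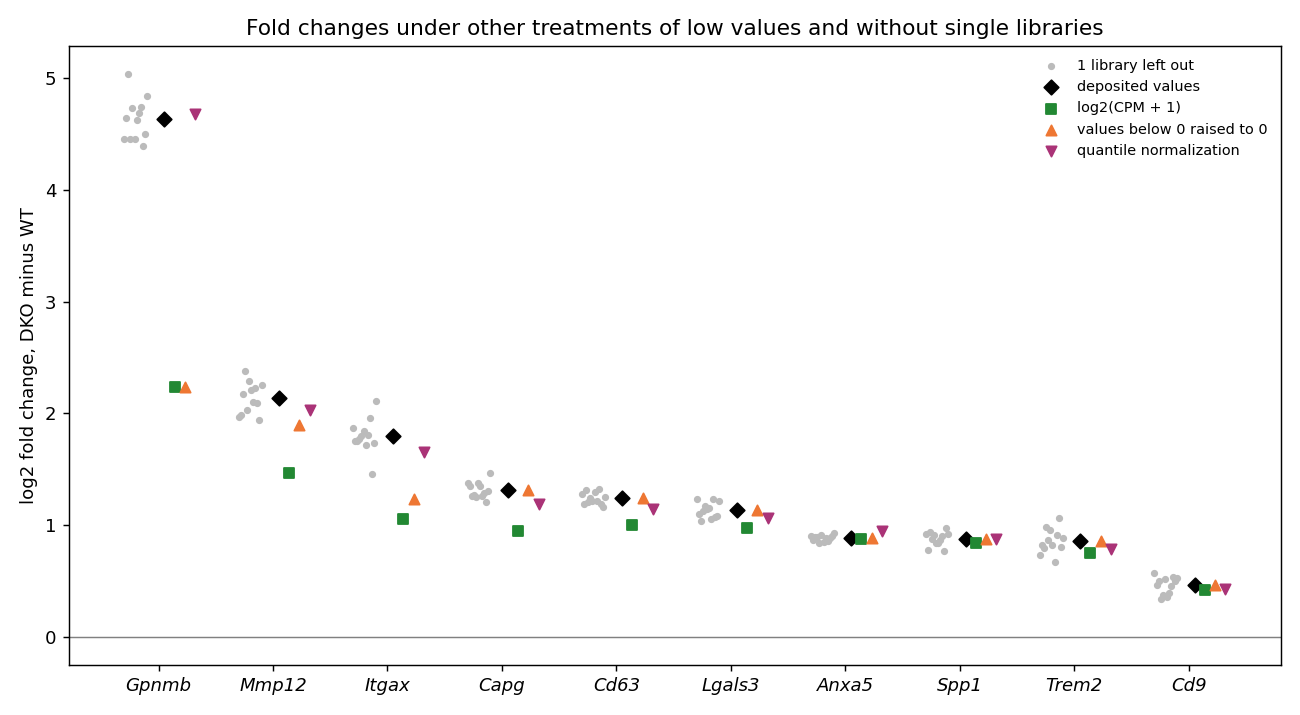
Log2 fold change of each gene (vertical axis) on the deposited values (black), on the log2(CPM + 1) scale, with values below 0 raised to 0, after quantile normalization, and with each of 12 libraries left out (grey). Gpnmb moves most, from 4.63 to 2.23, and no value lies below 0.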

How the data were processed

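Polyadenylated RNA from mouse liver was sequenced in 12 libraries, 6 WT and 6 DKO by the genotype label. The authors deposited log2 CPM, filtered and normalized between libraries per the file name. Tools listed without a role, per the submitters' processing notes, are kallisto 0.46.2, edgeR and limma, with the build GRCm39 (mm39). How low genes were filtered, what count was added and how libraries were scaled is not stated. The unnamed row (0.0075% to 0.0148% of CPM) was left out.

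Genes were compared with limma 3.58.1 (R 4.3.3; mean trend, 2-sided) on the 12284 named rows, with Benjamini-Hochberg adjustment. "Rose" and "fell" are used where the adjusted p was under 0.05. Single genes were also compared by 2-sided exact permutation over 924 divisions of the libraries, and correlations over 720 pairings (Python 3.11.15, scipy 1.17.1). A value within 1e-06 of the table's minimum counted as lowest.

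The 10 genes, the 16 context lists and the rules were chosen with earlier results of these data known. The named genes are the 10 genes, Acly and Acss2, up to 3 called genes per list and direction or else the gene with the smallest p, and the 4 genes most like the mean of the 10. Alb, Tyrobp, Fabp5, Lpl, Apoe, Plin2, Tfeb and Nr1h2 were named after their values were seen. The promoter motifs and the level relative to macrophage markers were also added then. Alternatives changed the mean trend, robustness, low-value treatment, scaling, replicate block and libraries included. On simulated data (6 against 6, 12284 genes) the fit recovered 26.9%, 85.1% and 93.9% of genes changed by 0.5, 1 and 2 on the log2 scale.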

Additional observations from a re-analysis of the deposited data

Results flagged for a closer look

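Among the 31 named genes, in 62 groups of 6 libraries, 4 had a library far from the other 5 of its group (Dixon's test), where chance gives about 1 in 20. None of the 10 macrophage genes was among them. In 3 of the 4 the library was WT 1, the highest of its group, with Acss2 at 7.45, Syk at 3.13 and Timd4 at 2.94 log2 CPM. In the fourth, Lgals1 in WT 2 was the lowest of its group at 2.55 log2 CPM.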

How the results depend on the processing

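Over all genes, 214 were called, and 138 without the mean trend, 109 with quantile normalization and 397 with the replicate block. Leaving out 1 library gave 92 to 373 calls, moving the count by over 1.5 times without any WT library or without DKO 1, DKO 3 or DKO 4. The count of macrophage genes that rose was 6 to 8 of 10 with 1 library left out, and 7 under every other alternative except the filter at a mean of 1 log2 CPM (6 of 8 tested). None was called lower. Their median log2 fold change was 1.12 to 1.26 with 1 library left out and 0.96 to 1.19 otherwise. The calls that altered were those of Spp1 and Itgax given above. The cause was not tested. A pairing by replicate number was not established: same-numbered libraries deviated from their group means with r of -0.077 to 0.287, and 4 of 6 WT libraries correlated best with the DKO library of their own number, a hint from the data and not from the design. With the replicate block 7 of the 10 genes rose, as without it. Of the other named genes, the block ended the call of Lgals1 and brought Syk, Timd4 and Col3a1 past the threshold. Depth per library is unknown, which limits what can be said of Gpnmb and Itgax at their WT levels.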

Other observations

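The genes outside the 10 whose levels were most like their mean, after subtraction of the group means over 12 libraries and among 10745 genes, were Gm20716 (r = 0.93, Spearman rho = 0.88), Lbh (r = 0.86, rho = 0.73), Apaf1 (r = 0.86, rho = 0.71) and Lrrc25 (r = 0.86, rho = 0.81). They were picked as the highest of many and are given with no test. The mean was taken over unscaled log2 values, so genes of wide spread weigh most in it. Gpnmb had an SD of 1.15 in WT, where 3 values stood at the lowest value of the table, and Itgax 1.13 in DKO. Anxa5 had 0.14 in each group. Within WT, r was 0.85 for Gm20716, 0.60 for Lbh, 0.87 for Apaf1 and 0.30 for Lrrc25. Within DKO, r was 0.95, 0.92, 0.87 and 0.996 in the same order. Lbh encodes a transcriptional cofactor, Apaf1 the scaffold of the apoptosome and Lrrc25 a leucine-rich repeat protein of myeloid cells. Gm20716 is listed by RefSeq as a long non-coding RNA with the synonym Dpm1-adnp, so its reads may be shared with neighbouring genes. None of the 4 passed between the groups (limma adjusted p = 0.0863, 0.221, 0.472 and 0.330), with log2 fold changes of -0.44, 0.52, 0.44 and 0.40 in DKO.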
